A study of Drosophila busckii and Drosophila melanogaster and Drosophila virilis with 5 samples.

Results

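The transfer RNA (tRNA) genes of Drosophila virilis were placed on the chromosome-length assembly that the study built from Hi-C contacts, and set against the boundaries between topologically associating domains (TADs) of that map. A gene was taken as a member if the deposited D. virilis annotation held at least 1 line of type tRNA for it on arm 2L, 2R, 3L, 3R or X. This gave 270 tRNA genes among 14407 genes of those 5 arms, and the annotation as a whole listed 272 tRNA genes among 14583 genes, the other 2 on Hi-C scaffolds outside the arms. The study made in situ Hi-C maps of mixed-sex embryos of stage 15 to 16 to assemble and compare fly genomes of different species. The D. virilis embryos came from stock 15010-1051.0 of the San Diego stock center and the D. melanogaster embryos used for comparison from the strain given as w1118 Oregon R, with no treatment in either. Each species has 1 deposited boundary list, called on a map summed over 2 replicates, so no spread between replicates could be given for any value, and intervals printed here cover counting only.

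A tRNA carries an amino acid to the ribosome and reads the codons of the messenger RNA with its anticodon, and fly genomes hold many copies of such genes. They are transcribed by RNA polymerase III from a promoter that lies inside the gene, made of the A box and the B box, which the factor TFIIIC binds. In budding and fission yeast, some tRNA genes and TFIIIC sites are known to act as barriers that keep neighbouring chromatin domains apart.

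Because the D. virilis sequence was not used here, the internal promoter is shown for D. melanogaster genes, chosen as the 2 nearest and the 2 farthest from a D. melanogaster boundary among genes of arms 2L, 3L, 3R and X whose sequence had no identical copy on the remaining arm, so some genes with smaller or larger distances are not shown. Capitals mark the last match on the gene strand to the B box letters GTTCNA, and the text runs 5′ to 3′ along the gene in Release 6 of the genome as held by RefSeq. The start of tRNA:Asp-GTC-1-4 (chr2L:8541552-8541623, minus strand) lay 0.051 kb from a boundary centre and that of tRNA:Gln-CTG-4-1 (chr2L:14010565-14010636, minus strand) 0.156 kb. The start of tRNA:Arg-TCG-2-1 (chrX:14014814-14014886, plus strand) lay 185 kb away and that of tRNA:Arg-TCG-3-1 (chrX:14016203-14016275, plus strand) 184 kb. The aspartate sequence occurred in 12 genes, the glutamine sequence in 1 and each arginine sequence in 4. By name, tRNA:Arg-TCG-2-4 is a copy of tRNA:Arg-TCG-2-1, and it lay 0.184 kb from a boundary. Likewise tRNA:Asp-GTC-1-6 lay 66.2 kb away, so the sequences shown do not tell near genes from far ones.
tRNA:Asp-GTC-1-4: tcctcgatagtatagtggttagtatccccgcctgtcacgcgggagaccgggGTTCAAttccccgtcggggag
tRNA:Gln-CTG-4-1: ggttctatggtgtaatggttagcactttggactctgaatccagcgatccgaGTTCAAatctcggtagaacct
tRNA:Arg-TCG-2-1: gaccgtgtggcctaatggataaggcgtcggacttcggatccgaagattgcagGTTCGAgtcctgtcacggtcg
tRNA:Arg-TCG-3-1: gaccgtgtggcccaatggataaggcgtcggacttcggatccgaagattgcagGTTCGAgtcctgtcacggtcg
Over all 290 D. melanogaster tRNA genes with a boundary on each side, 272 (93.8%) held the letters on the gene strand, and 54 (18.6%) of the stretches of the same length just upstream held them on either strand. The letters were found in 69 of the 77 genes that started within 5 kb of a boundary and in 203 of the 213 farther genes. A match to these letters is a description of the sequence, and the binding of TFIIIC was not measured.

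In D. virilis the tRNA genes spanned a median of 73 bp, from 71 to 191 bp, with 220 genes of 71 to 74 bp and 32 of 80 to 85 bp. They fell evenly on the strands, 133 on the plus and 137 on the minus strand. An intron, which is cut out of the transcript before the tRNA is mature, was annotated in 17 genes and was 18 to 115 bp long with a median of 25 bp. The longest span was that of tRNA:GJ25373 (2L, 27167053 to 27167243), whose 115 bp intron was the longest of all and which lay inside the coding gene GJ17809. The 17 genes with an intron had a median distance to a boundary of 28.7 kb and the 253 without one 15.1 kb. The 17 lay in 13 TADs, with 3 side by side on 2L at 107 to 111 kb and 3 on 3L at 161 to 162 kb. Their median thus describes few positions. The annotation names the genes by number and gives neither amino acid nor anticodon, so the D. virilis genes could not be grouped by the codon they read.

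The tRNA genes were unevenly spread over the arms. Arm 2R held 98 of the 270 genes, which is 36.3% of them on 17.4% of the assembled length, at a density of 3.61 tRNA genes per Mb. Arm 3R held 62 genes, 2L 44 and 3L 41, at densities between 1.45 and 1.62 per Mb. The X chromosome held 25 genes, 9.26% on 21.3% of the length, or 0.751 per Mb. The other noncoding genes, here the miRNA, snoRNA, snRNA, rRNA and other ncRNA genes and the annotated pseudogenes, were spread more evenly, from 4.29 per Mb on X to 6.66 per Mb on 2R. Coding genes ranged from 64.6 per Mb on X to 101 per Mb on 2R. Per 1000 coding genes there were 35.8 tRNA genes on 2R and 11.6 on X, with 15.8 to 19.1 on the remaining arms, so the high share of 2R and the low share of X stood also relative to the gene density of the arms.

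**Figure D1:**
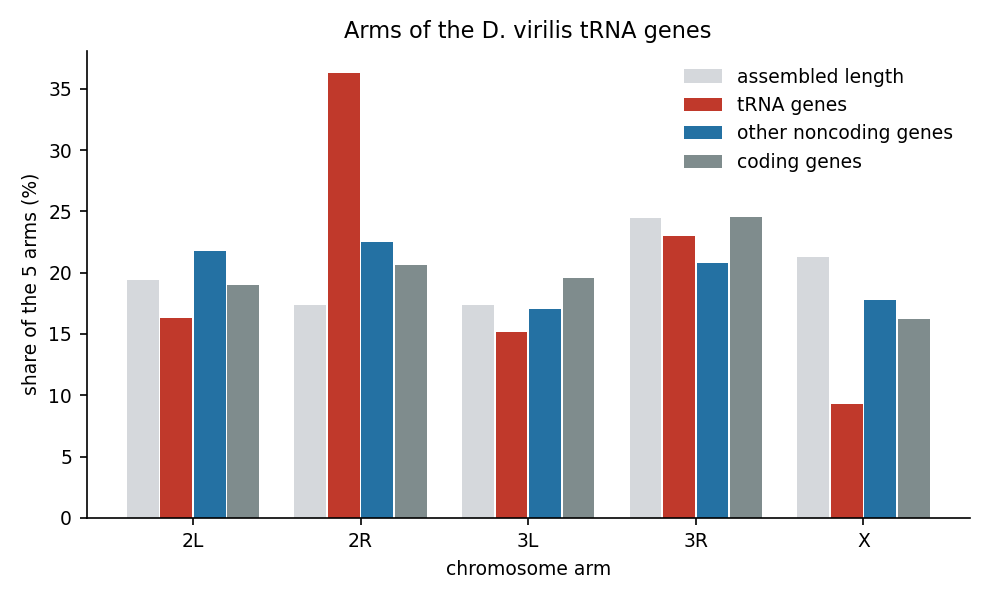
Share (%) of the assembled length, the tRNA genes, the other noncoding genes and the coding genes of D. virilis on each of the 5 arms. The tRNA bar is above the other 3 bars on 2R (36.3%) and below them on X (9.26%).

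Most tRNA genes had another tRNA gene close by. With neighbours joined when their starts lay at most 10 kb apart, 177 of the 270 genes (65.6%, 95% Wilson interval 59.7 to 70.97) formed 57 clusters, and 93 genes stood alone. The interval counts each gene as separate, although a gene is clustered only together with a neighbour. The share of other noncoding genes in clusters by the same rule is not given here, so the value is not a comparison. Of the clusters, 27 were pairs, 19 held 3 genes, 5 held 4, 3 held 5, and 1 each held 6, 7 and 18 genes. The clusters were compact, with a median span of 1.31 kb (0.226 to 21.1 kb) and a median gap of 455.5 bp between neighbouring genes, 84 of 120 gaps being under 1000 bp. Neighbours pointed the same way in 71 of the 120 pairs (59.2%), towards each other in 26 and away from each other in 23. A total of 25 clusters lay on 1 strand and 32 on both strands. Arm 2R carried 23 of the clusters and X carried 3.

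The largest cluster held 18 genes in 21.1 kb of 2R (21129072 to 21150213), from tRNA:GJ25172 to tRNA:GJ25155, with 8 genes on the plus and 10 on the minus strand. Its genes lay 12.5 to 33.6 kb from the nearest boundary (21161982 to 21163387), whose score was 0.272. The deposited score measures the separation of the adjoining TADs, a low value standing for few contacts across the boundary, and over the 2095 boundaries of the 5 arms it had a median of -0.0535 with quartiles of -0.150 and 0.0613. The TAD of this cluster was 69.8 kb long and held the starts of 23 tRNA genes and 6 coding genes (genes are assigned to TADs by their start throughout), and both of its boundaries, at 0.475 and 0.272, scored above the upper quartile. The cluster thus lay inside a TAD whose limits were among the weakly separating ones.

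The 2 next largest clusters also lay within 1 TAD each. A cluster of 7 genes on 3R (6185018 to 6203798, tRNA:GJ25318 to tRNA:GJ25312) was 4.16 to 18.4 kb from its nearest boundaries, in a TAD of 41.2 kb that held 10 tRNA genes and 8 coding genes. A cluster of 6 genes on 2L (13160697 to 13171467, tRNA:GJ25228 to tRNA:GJ25233) was 106 to 117 kb from a boundary, inside the 147 kb coding gene GJ11247 and in a TAD of 299.6 kb that held 9 tRNA genes and 20 coding genes. The pair of boundaries of the 3R TAD scored 0.0492 and 0.334, and those of the 2L TAD -0.310 and -0.108, so the TADs rich in tRNA genes differed in how sharply they were limited.

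**Figure D2:**
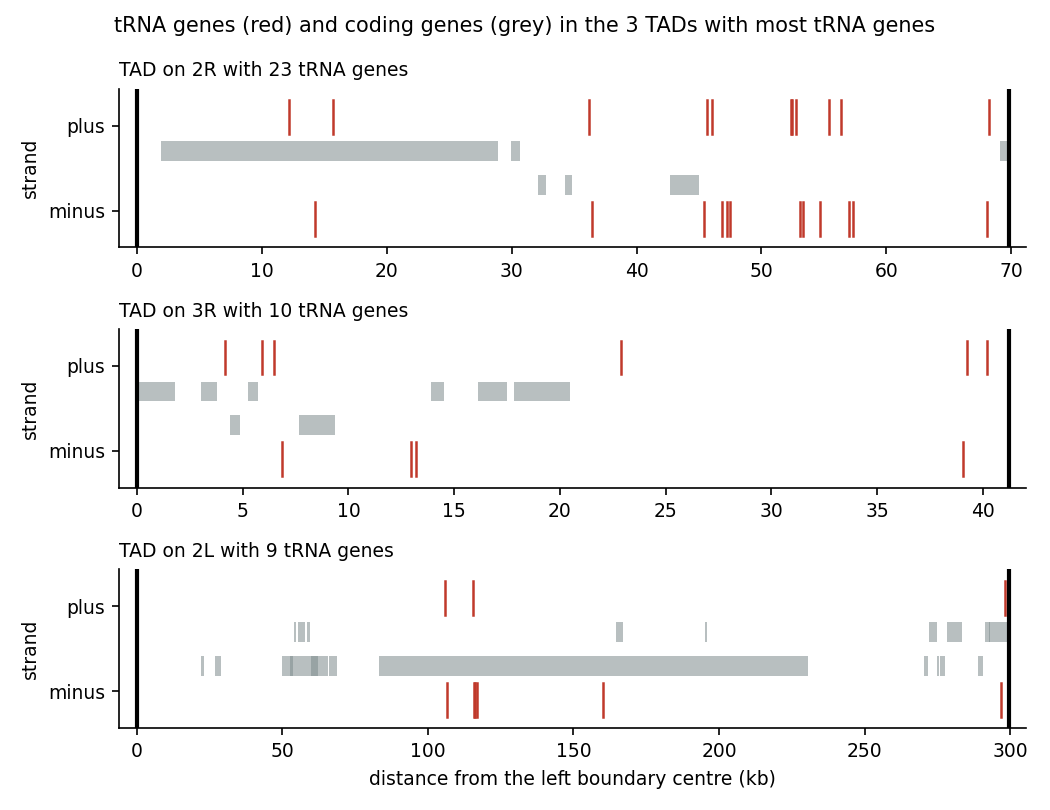
The 3 TADs of D. virilis with most tRNA genes, drawn in kb from the centre of the left boundary, with boundaries as black lines, tRNA gene starts as red ticks and coding genes as grey bars, above the axis for the plus and below it for the minus strand. The 23 tRNA genes of the 2R TAD include the cluster of 18, and most of the 9 of the 2L TAD lie inside the long coding gene GJ11247.

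All 270 tRNA genes lay between the outermost boundaries of their arm, and the distance from the 5′ end of the gene to the centre of the nearest boundary had a median of 15.6 kb (quartiles 5.43 and 34.3 kb, range 0.0865 to 196 kb). The median of the 803 other noncoding genes with a boundary on each side was 14.8 kb, and that of the 13258 coding genes 10.9 kb. The 95% order-statistic intervals of the medians, 13.2 to 17.7 kb for tRNA genes and 12.6 to 17.6 kb for the other noncoding genes, overlapped almost wholly. The interval of the coding genes, 10.6 to 11.3 kb, lay below both. These intervals count each gene as separate, although genes of a cluster share a boundary.

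The other noncoding genes were a mixture in this respect. The snoRNA genes, whose products guide the modification of ribosomal RNA and which mostly lie in introns, had a median of 4.64 kb, the snRNA genes 11.5 kb, the pseudogenes 17.99 kb, the miRNA genes 18.6 kb, the remaining ncRNA genes 21.4 kb and the 36 rRNA genes 207 kb. The interval of the tRNA median lay above that of the snoRNA genes (3.45 to 5.33 kb) and overlapped those of the miRNA genes (12.3 to 26.0 kb) and ncRNA genes (16.5 to 26.9 kb). The difference of the tRNA median from that of the class as a whole, 0.809 kb, had no stable sign or size. It became -5.53 kb without the 160 snoRNA genes, -0.774 kb with clusters counted once in both classes, and 16.9 kb (53.8 against 36.9 kb) with only the boundaries that scored at or below the list's median.

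A total of 20 tRNA genes (7.41%) started within 1 kb of a boundary centre, beside 62 other noncoding genes (7.72%), 13.7% of coding genes and 13.2% of all genes. Within 5 kb the count was 66 (24.4%, 95% Wilson interval 19.7 to 29.9), beside 27.6% of the other noncoding genes, 55.6% of snoRNA genes, 32.0% of coding genes and 31.7% of all genes. Both shares of the tRNA genes were below that of all genes and near that of the other noncoding genes. At the far end, 52 tRNA genes (19.3%) lay more than 50 kb from a boundary, compared to 24.5% of the other noncoding genes.

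**Figure D3:**
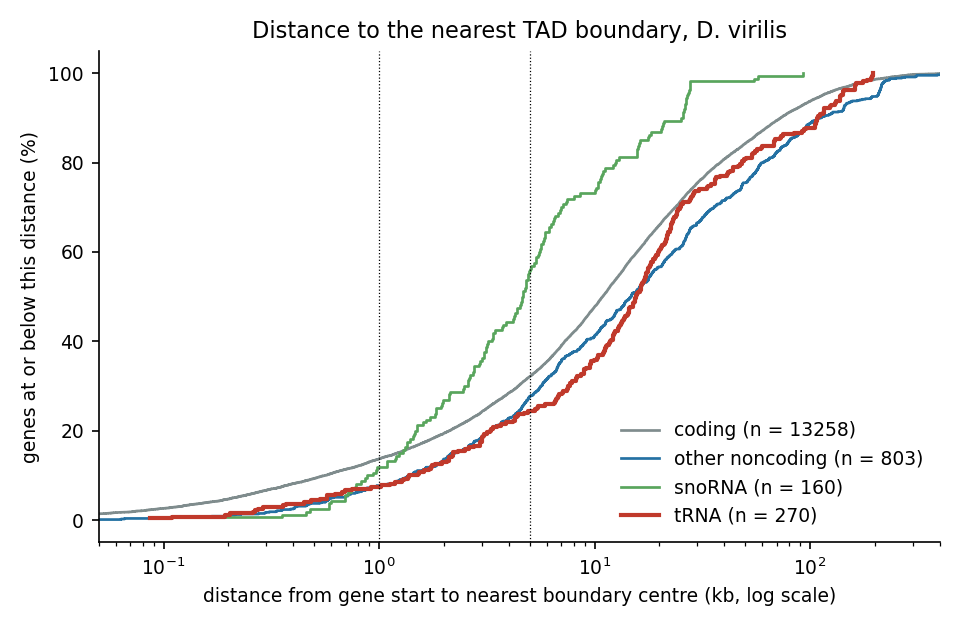
Cumulative share (%) of the 270 tRNA, 803 other noncoding, 160 snoRNA and 13258 coding genes of D. virilis against the distance (kb, log axis) between gene start and closest boundary centre, with dotted lines at 1 and 5 kb. The tRNA curve runs with that of the other noncoding genes up to 5 kb (24.4% and 27.6% there) and below the coding curve.

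The distance varied with the arm and with the size of the cluster. Median distances of tRNA genes were 11.8 kb on 3L, 13.2 kb on 2R, 13.4 kb on 3R, 22.4 kb on 2L and 36.6 kb on X. The other noncoding genes were also farthest on X (25.6 kb) and nearest on 3L (8.56 kb). Their median was above that of the tRNA genes on 2R (16.1 kb) and below it on the remaining arms. On X no tRNA gene was within 1 kb and 4 of 25 (16%) were within 5 kb of a boundary. The shares of other noncoding and coding genes of X within 5 kb were 25.2% and 28.6%. X had 11.1 boundaries per Mb, against 13.4 over the 5 arms. By cluster size, the 111 genes in clusters of 2 or 3 had a median of 10.4 kb with 39 (35.1%) within 5 kb, the 93 single genes 20.6 kb with 22 (23.7%), and the 66 genes in clusters of 4 or more 18.3 kb with 5 (7.58%). The small clusters therefore carried most of the tRNA genes near a boundary, 39 of 66. Genes of the larger clusters come from 11 clusters only, and 12 TADs.

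The 5 tRNA genes nearest to a boundary were tRNA:GJ25322 on 3L at 0.0865 kb, tRNA:GJ25226 on 2L at 0.110 kb, tRNA:GJ25207 on 2R at 0.192 kb, and tRNA:GJ25287 and tRNA:GJ25295 on 3R at 0.204 and 0.260 kb. The first 4 belonged to clusters that a boundary centre divided, and these were the only such clusters among the 57. On 2L a boundary (13048762 to 13049347, score -0.193) fell inside the 3 minus-strand genes tRNA:GJ25225 to tRNA:GJ25227, which lay 0.110 to 0.697 kb from its centre. On 2R a boundary (14705733 to 14706225, score -0.0294) fell inside the 3 minus-strand genes tRNA:GJ25207 to tRNA:GJ25205, at 0.192 to 0.753 kb. On 3L a boundary (25548311 to 25549098, score 0.225) fell inside 4 minus-strand genes, tRNA:GJ25322 to tRNA:GJ25319, which lie within the coding gene GJ12709. On 3R a boundary (21400291 to 21400833, score -0.290) divided tRNA:GJ25287 from its neighbour, 7.51 kb away from the centre on the other side. In the first 3 of these, the genes lay on a single strand and spanned 1.14, 1.018 and 1.285 kb, beside a median width of 969 bp for the boundary intervals of the list.

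At the other extreme, the 5 farthest tRNA genes lay in 3 TADs. They were tRNA:GJ25144 and tRNA:GJ25145 on 2R, both at 196 kb, tRNA:GJ25265 on X at 194 kb, tRNA:GJ25122 on 3R at 193 kb and tRNA:GJ25264 on X at 183 kb. The 2R genes sat in a 609 kb TAD that held 36 coding genes and contained a joint between 2 scaffolds of the assembly. The TADs of the X and 3R genes were 432 kb and 393 kb long.

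Boundaries with a tRNA gene start within 1 kb numbered 13, or 0.621% of all 2095. Coding gene starts were sparse at them: 4 of the 13 (30.8%, Wilson interval 12.7 to 57.6) had a coding start within 1 kb of the centre, compared to 1349 of all 2095 boundaries (64.4%) and 34 of the 52 boundaries (65.4%, 51.8 to 76.8) that had another noncoding gene start within 1 kb. The median distance from boundary centre to coding start was 2.14 kb at the 13 boundaries, 0.722 kb at the 52 and 0.517 kb over the list. For 19 of the 20 tRNA genes within 1 kb, the tRNA gene lay nearer to the centre than any annotated coding start, whereas this held for 35 of the 62 other noncoding genes. The exception was tRNA:GJ25201 on 2R, at 0.625 kb, beside the start of GJ21813 at 0.082 kb. The 20 tRNA genes share the 13 boundaries, so those of a cluster are not separate cases. The 62 other noncoding genes included 19 snoRNA genes, of which 5 lay nearer to the centre than a coding start. In the most isolated case, the boundary inside the 3L cluster, the nearest coding start, that of GJ12709, was 12.2 kb away, and at the divided 2R cluster it was that of GJ27005 at 11.2 kb. With the window for the tRNA gene widened to 5 kb, 24 of 46 boundaries (52.2%, 38.1 to 65.9) had a coding start within 1 kb, compared to 95 of 155 (61.3%, 53.4 to 68.6) for the other noncoding genes. The comparison rests on 13 boundaries of 1 map and on the completeness of the annotation, which was not tested.

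**Figure D4:**
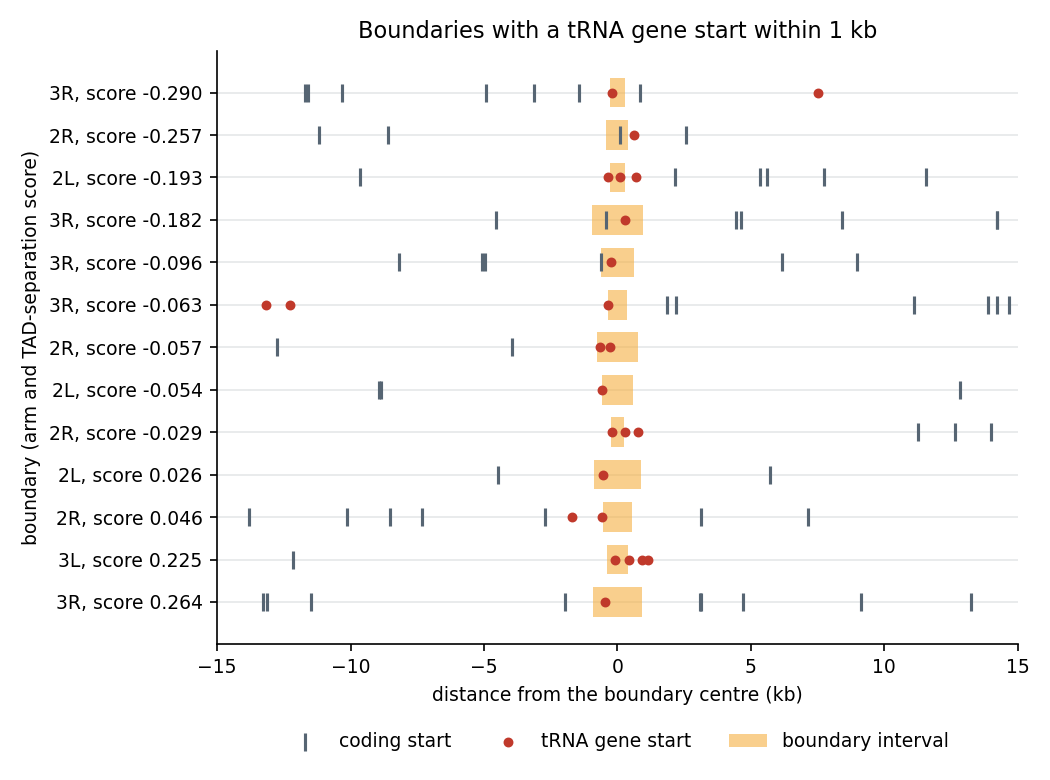
The 13 D. virilis boundaries with a tRNA gene start within 1 kb, 1 row each from the lowest to the highest TAD-separation score, with distance from the boundary centre in kb, the boundary interval in orange, tRNA gene starts as red dots and coding gene starts as grey ticks. Coding starts lie within 1 kb of the centre in 4 of the 13 rows.

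The scores of the boundaries beside tRNA genes varied widely. The nearest boundary scored between -0.356 and 0.826, within the -0.508 to 1.09 of the whole list, with a median of -0.0231 over the 270 genes (order-statistic interval -0.0545 to 0.0159), compared to -0.0701 for the other noncoding genes, -0.0744 for coding genes and -0.168 for snoRNA genes. The nearest boundary was in the lowest 25% of scores for 61 tRNA genes (22.6%), beside 31.1% of the other noncoding, 27.4% of the coding and 27.5% of all genes. A score above 0 was found for 122 tRNA genes (45.2%), 30.9% of the other noncoding and 27.3% of the coding genes. The excess over the other noncoding genes came mostly, though not wholly, from the large clusters. The 66 genes in clusters of 4 or more had a median of 0.230, and 52 of them a score above 0. The 93 single genes had a median of -0.0662 and the 111 genes in clusters of 2 or 3 a median of -0.0704. With each of the 126 boundaries nearest to a tRNA gene counted once, the median was -0.0598, against -0.0535 for the list, and 45 (35.7%) scored above 0, against 144 of 462 (31.2%) for the other noncoding genes.

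The lowest-scoring boundary with a tRNA gene start within 5 kb was on 3L (17565466 to 17566199, score -0.356), with tRNA:GJ25330 at 2.20 kb and tRNA:GJ25329 at 2.61 kb. It was followed by a 2L boundary (13054246 to 13055223, -0.310) with tRNA:GJ25227 at 4.98 kb, a gene of the divided 2L cluster that lay nearer to the boundary inside that cluster, and by the 3R boundary beside tRNA:GJ25287 (-0.290). The 2 that came after, both on 2L, stood on either side of tRNA:GJ25106 (5252944 to 5253016), one (5255190 to 5256972, -0.264) at 3.065 kb and one (5248771 to 5249522, -0.257) at 3.87 kb. All 5 of these low-scoring boundaries also had a coding start within 1 kb, from 0.0455 kb (GJ17954) to 0.844 kb (GJ23739). Over all 2095 boundaries the share was 64.4%, and that of other boundaries with equally low scores is not given here.

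The stretches between consecutive boundary centres gave 2090 TADs, of which 122 (5.84%) held a tRNA gene. Their median length was 75.8 kb (order-statistic interval 59.6 to 98.5, range 5.68 to 609 kb), compared to 39.7 kb over all TADs and 80.3 kb for the 437 TADs with another noncoding gene. They held a median of 8 coding genes, against 4 over all TADs. The median density per TAD was 78.5 coding genes per Mb, against 104 over all TADs and 78.4 in those with another noncoding gene. Short and long TADs count alike in these medians, and the 5 arms as a whole held 84.8 coding genes per Mb. In length and gene density the TADs with tRNA genes were thus close to those with other noncoding genes, and a longer TAD has more room for a gene of either class. A single tRNA gene was found in 68 of the 122 TADs, while 11 TADs with 5 or more held 87 of the 270 genes. No coding gene started in 5 of the 122 TADs (4.10%), compared to 124 of all 2090 (5.93%), and a coding gene that started elsewhere reached into 4 of the 5.

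By TAD length, TADs of 50 to 100 kb held 82 tRNA genes (30.4%) on 18.8% of the sequence, compared to 18.9% of the other noncoding and 20.5% of the coding genes. This rested in part on 1 TAD, since without the 23 tRNA genes of the 2R TAD of 69.8 kb the count was 59 of 247 (23.9%). TADs of 20 to 50 kb held 75 tRNA genes (27.8% on 17.8% of the sequence, or 30.4% without that TAD). The same TADs held 27.0% of the other noncoding and 31.5% of the coding genes. TADs of 150 kb and over held 88 tRNA genes (32.6% on 48.5% of the sequence). Their shares of the other noncoding and coding genes were 38.0% and 28.7%. TADs under 20 kb held 8 tRNA genes (2.96% on 3.24% of the sequence), compared to 6.10% of the other noncoding and 9.19% of the coding genes. Within their TAD, 24.8% of tRNA genes lay in the outer 10% at either end, compared to 29.8% of the other noncoding and 34.7% of the coding genes.

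**Figure D5:**
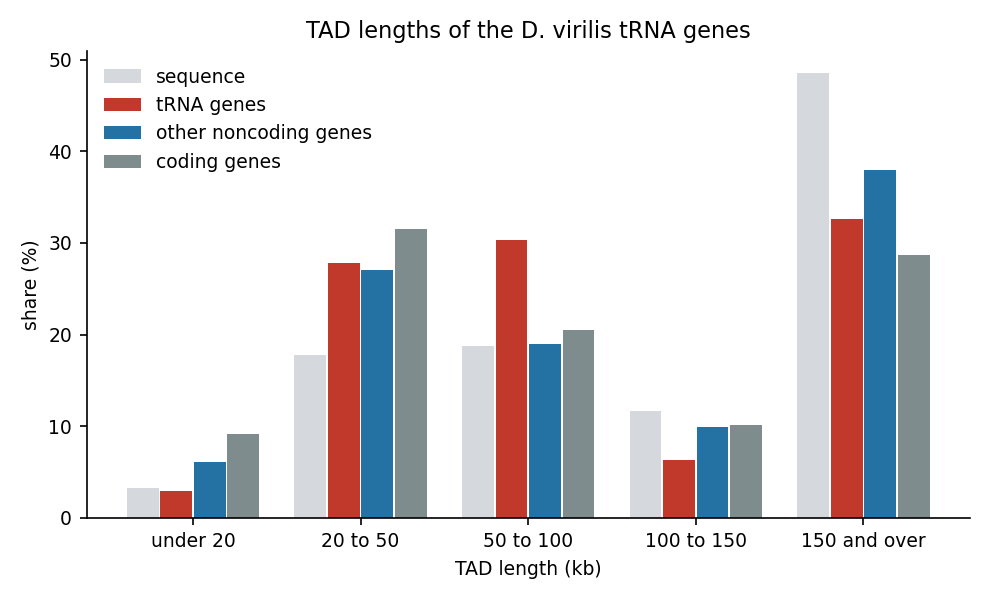
Share (%) of D. virilis sequence, tRNA genes, other noncoding genes and coding genes in TADs of 5 length classes (kb). The tRNA share is above the other 3 in TADs of 50 to 100 kb (30.4%, or 23.9% without the TAD of 23 tRNA genes) and is 2.96% in TADs under 20 kb.

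Of the 270 tRNA genes, 94 (34.8%) lay inside a coding gene, spread over 59 host genes, compared to 38.9% of the other noncoding, 43.5% of miRNA and 76.9% of snoRNA genes. They lay opposite to the host strand in 62 cases and on it in 31, and tRNA:GJ25221 lay inside the 2 genes GJ21974 and GJ20356, on different strands. Only tRNA:GJ25368 overlapped an exon of a coding gene, GJ20530. The longest hosts were GJ18297 (174 kb), GJ11247 (147 kb), GJ23029 (131 kb), GJ19291 (118 kb) and GJ21757 (95.2 kb). Each held 1 tRNA gene except GJ11247, which held 7. The distance to a boundary was similar inside and outside coding genes, with medians of 15.6 and 15.5 kb. The median distance from a tRNA gene to the nearest coding start was 4.30 kb, and 44 tRNA genes (16.3%) had one within 1 kb, compared to 3.45 kb and 21.2% for the other noncoding genes.

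None of the 270 tRNA genes was within 5 kb of a joint between scaffolds of the assembly, and their median distance to a joint was 944 kb. The nearest was tRNA:GJ25101 (3R, 17296522), at 6.33 kb, and 7 of the 122 TADs with a tRNA gene (5.74%) contained a joint, compared to 82 of all 2090 (3.92%). The outer 10% at the ends of the arms held 32 tRNA genes (11.9%). Shares of other genes near joints or at the arm ends are not given here, so these 2 counts are not comparisons. Of the coding genes of the tRNA pathway looked for by symbol (aminoacyl-tRNA synthetases, subunits and factors of RNA polymerase III, and processing and modifying enzymes), only 2 carried a matching symbol in the D. virilis annotation. These were Aats-tyr, the tyrosyl-tRNA synthetase, at 2.35 kb from a boundary, and Tbp, the TATA-binding protein, at 16.8 kb.

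In D. melanogaster, whose genes carry names by amino acid, the same layout was measured on its own map. Of 312 tRNA genes, 290 lay on the arms, and 225 of these (77.6%) formed 69 clusters. Arm 2R held 98 genes (33.8%) and X held 24 (8.28%), so the arm with most and the arm with fewest tRNA genes were the same as in D. virilis, whose arms are named after the corresponding D. melanogaster arms. The median distance to a boundary was 11.7 kb (10.3 to 13.9 kb), compared to 15.1 kb for the other noncoding and 9.12 kb for the coding genes. A total of 77 genes (26.6%) started within 5 kb, beside 32.7% of all genes and 23.0% of the other noncoding genes. Within 1 kb the count was 29 (10%), beside 13.7% of all genes and 5.77% of the other noncoding genes. On X, the median was 96.3 kb with 1 gene within 5 kb, but 14 of the 24 X genes lay in a single TAD of 417 kb and the other 10 had a median of 16.8 kb. The 112 TADs with a tRNA gene had a median length of 65.6 kb, against 35.5 kb over all TADs. Coding starts were again less frequent at the boundaries with a tRNA gene start within 1 kb, at 10 of 20 (Wilson interval 29.9 to 70.1) compared to 74.8% of all boundaries and 82.4% of those with another noncoding gene start within 1 kb. The noncoding annotation of D. melanogaster is larger, with 3848 other noncoding genes, so the classes are not the same in the 2 species.

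Among amino acids with at least 5 D. melanogaster genes, the glutamine tRNA genes were nearest to boundaries, with a median of 2.80 kb and 7 of 12 genes within 5 kb, followed by asparagine (4.59 kb, 6 of 10) and leucine (5.82 kb, 8 of 22). Glycine tRNA genes were farthest, at 36.4 kb with 2 of 20 within 5 kb, then the elongator methionine genes (27.8 kb, 1 of 6) and serine (26.9 kb, 3 of 20). Genes of 1 amino acid share clusters, the 12 glutamine genes lying in 7 TADs and the 10 asparagine genes in 4, so these medians describe few positions. Of the tRNA pathway genes, 77 matched by symbol in D. melanogaster, and 57 of them lay nearer to a boundary than the median coding gene, with a median of 3.90 kb. Of the 77, 16 (20.8%) were within 1 kb, compared to 16.0% of all D. melanogaster coding genes.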

How the data were processed

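In situ Hi-C of D. virilis and D. melanogaster embryos was used. Per the methods and labels, the authors aligned read mates with BWA, built HiCExplorer matrices at restriction fragment resolution, summed 2 replicates per species and called boundaries. The deposited lists hold each boundary's start, end and score, the TAD-separation score. The deposited D. virilis annotation is the FlyBase annotation lifted by the authors to their assembly, and the deposited chain file gave scaffold positions. Read depth was not used. D. melanogaster genes came from Ensembl BDGP6.54. Of 4354 D. melanogaster boundary edges, 56.3% lay within 3 bp of the centre of a bin around a DpnII site of Release 6, and 0.436% after a shift of 40 bp. The D. busckii list was not used.

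Distances ran from the annotated 5′ end of a gene to the boundary centre, TADs between consecutive centres, and clusters joined starts at most 10 kb apart. The genes named were the 5 nearest and 5 farthest, the 3 largest clusters and 3 TADs richest in tRNA genes, those beside the 5 lowest-scoring boundaries, those nearest to joints, the longest hosts and span, coding genes beside them, and pathway genes; genes in divided clusters, in 2 hosts or over an exon, and the amino acids, were chosen after their values were seen. Members, lists and rules were chosen with earlier results of these data known. No test was run, since each species has 1 map; shares have Wilson intervals and medians order-statistic intervals. The positioning steps were tested on simulated data. Python 3, NumPy, SciPy and matplotlib were used. Alternatives covered the reference point, boundaries, classes, clusters and arm ends.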

Additional observations from a re-analysis of the deposited data

Results flagged for a closer look

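The median distance to a boundary of tRNA genes minus that of other noncoding genes had opposite signs in the 2 species, 0.809 kb in D. virilis and -3.33 kb in D. melanogaster. The difference between species was not tested, each has 1 map, and the noncoding annotations differ, with 803 and 3848 other noncoding genes.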

How the results depend on the processing

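The median distance of D. virilis tRNA genes stayed between 14.8 and 16.2 kb and the share within 5 kb between 24.4% and 26.7% with the gene midpoint, the boundary edge, each tRNA cluster counted once or the arm ends left out. The difference of 0.809 kb from other noncoding genes became 1.03, 0.497, 1.43 and 2.11 kb in that order. Using only boundaries at or below the median score gave 53.8 kb (D. virilis other noncoding genes 36.9 kb), 12.5%, a difference of 16.9 kb and a TAD length of 229 kb. The D. melanogaster tRNA median became 45.6 kb with that choice. The cause was not tested. The difference turned to -5.53 kb without snoRNA genes and to -0.774 kb with clusters counted once in both classes. The median score of the nearest boundary, -0.0231, was -0.0598 with each tRNA cluster counted once and -0.121 for the lower-scoring boundary of the TAD. Requiring 3 genes per cluster left 45.6% of genes clustered. No paired analysis was possible because each species has 1 boundary list, and no replicate could be left out. Positions are limited by the boundary intervals, with a median width of 969 bp.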
